A study of Rattus norvegicus with 10 samples.

Results

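The CCN matricellular proteins, the transforming growth factor beta (TGF-beta) ligands and thrombospondin-1 were described as 9 genes: Ccn1, Ccn2, Ccn3, Ccn4, Ccn5, Tgfb1, Tgfb2, Tgfb3 and Thbs1. The members were chosen by gene symbol, read from the RefSeq accession of each array probe, with the older names Cyr61, Ctgf and Nov taken as Ccn1, Ccn2 and Ccn3. They made up 9 of the 15168 genes named on the array and 10 of its 30367 probes, since Tgfb2 had a pair of probes and each other member 1. All 9 genes were well above background on all 10 arrays, so none was lost to the filter on dim probes. Ccn4, Tgfb1 and Thbs1 were nevertheless dim, at percentiles 5.7, 9.1 and 7.0 of the mean level among genes tested.

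The tissue was the submandibular gland, one of the paired glands that make saliva, and the mRNA of its whole mix of cells was read. Of the 10 rats, all males at 14 weeks of age, 5 were spontaneously hypertensive rats (SHR), inbred animals whose blood pressure climbs with age. The other 5 were Wistar-Kyoto rats (WKY), the related strain with normal blood pressure that served as control. Each array held the RNA of 1 rat on a one-colour Agilent design and is named by its strain and title number, such as SHR 3-4. No treatment was labelled, and the strains differ across the genome, so no difference can be assigned to blood pressure or to a single locus.

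CCN proteins are secreted, modular proteins of the extracellular matrix that bind integrins and heparan sulphate proteoglycans and tune how cells adhere, divide and lay down matrix. TGF-beta ligands are secreted in a latent complex, are released by integrins, proteases or thrombospondin-1, and signal through receptor kinases to SMAD transcription factors. Ccn1 and Ccn2 are known as targets of TGF-beta, of YAP and TAZ acting through TEAD factors, and of serum response factor. In salivary glands TGF-beta signalling is known for its part in duct and acinar development and in fibrosis.

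The promoters of Ccn1, Ccn2 and Thbs1 are shown because they were the member promoters that held the 6 letters GGAATG, the core that TEAD factors recognise. The sequences are RefSeq's on the GRCr8 build and run from 250 bases before to 50 bases after the annotated start, written 5′ to 3′ along the gene. Capitals mark GGAATG or its reverse complement CATTCC, the TATA box letters TATAAA, and CAGACA, a short SMAD-binding element. The promoter table held 6 of the 9 members, without entries for Ccn3, Ccn4 and Ccn5.
Ccn1, chr2:237225640-237225939, minus strand: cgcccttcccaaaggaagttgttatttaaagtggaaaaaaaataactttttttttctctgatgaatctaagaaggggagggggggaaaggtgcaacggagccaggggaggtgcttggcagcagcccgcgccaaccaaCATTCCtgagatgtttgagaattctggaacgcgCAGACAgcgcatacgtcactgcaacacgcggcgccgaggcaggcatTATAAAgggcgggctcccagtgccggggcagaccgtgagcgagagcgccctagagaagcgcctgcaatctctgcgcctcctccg
Ccn2, chr1:22624565-22624864, minus strand: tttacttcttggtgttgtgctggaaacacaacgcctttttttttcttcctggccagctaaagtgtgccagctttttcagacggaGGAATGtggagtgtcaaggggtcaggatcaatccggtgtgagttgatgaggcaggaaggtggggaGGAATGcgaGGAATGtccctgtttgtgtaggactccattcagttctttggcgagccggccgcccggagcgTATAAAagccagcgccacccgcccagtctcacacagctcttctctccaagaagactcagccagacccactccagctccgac
Thbs1, chr3:125510000-125510299, plus strand: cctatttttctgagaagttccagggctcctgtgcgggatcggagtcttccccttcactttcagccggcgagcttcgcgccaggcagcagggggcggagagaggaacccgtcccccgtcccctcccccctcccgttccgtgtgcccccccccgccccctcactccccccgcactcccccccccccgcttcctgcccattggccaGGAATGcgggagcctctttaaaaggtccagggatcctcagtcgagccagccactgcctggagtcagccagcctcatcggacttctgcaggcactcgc

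GGAATG was searched on both strands and lay in 3 of the 6 member promoters, against 14.2% of 33469 RefSeq promoters of the same length. Ccn1 held it once, on the reverse strand, 113 bases before the start. Ccn2 held it 3 times, at 166, 101 and 92 bases before the start, and Thbs1 once, 47 bases before. TATAAA lay 34 bases before the start of Ccn1 and 31 before that of Ccn2, against 14.2% of all promoters. CAGACA lay only in the Ccn1 promoter among the 6, at 80 bases before the start, against 21.1% of all promoters. The palindromic SMAD box GTCTAGAC (0.197% of all promoters), the AP-1 site TGANTCA (7.33%) and the CArG box of serum response factor (1.64%) were in 0 of the 6. No motif of 1 kind overlapped a motif of another kind in these windows, and a match is a description of letters, not of binding.

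On each array 94.8% to 97.7% of spots were well above background and 0 were saturated, and the 75th percentile of the processed signal ran between 333 and 648. Values below are log2 signals relative to that 75th percentile. Precision is limited by there being 5 arrays a strain. Array SHR 3-3 stood apart: 420 of its genes were lower by 2-fold or more than the average of its strain's remaining 4 arrays, a count of 31 to 45 for each of those 4. Arrays with the same scan time in their file headers are called a slide here, though the labels name no slide. By scan time, slide 1 held SHR 2-3, 3-1, 3-3 and 3-4, and slide 3 held WKY 1-2 and 1-3. Slide 2 held SHR 2-1 with WKY 1-5, 4-1 and 4-2. Strain and slide thus cannot be told apart outside slide 2, and the main fit below has no slide term. Of the gland's own markers, all 5 acinar and the 4 measured granular duct genes were well above background on every array.

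Ccn1 was higher and Ccn5 lower in the SHR gland, while the other 3 CCN genes, the 3 TGF-beta ligands and Thbs1 did not pass the test. The test was limma across 14711 genes with Benjamini-Hochberg adjustment and a threshold of 0.05. Thus 1 of the 9 members rose, against 1.51% of all genes tested, and 1 fell, against 2.85%. In either direction 2 of 9 passed, against 4.36% of all genes. An unadjusted limma p under 0.05 was held by 2990 of the 14711 genes tested. The unadjusted counts given for lists below are to be read beside that share, not beside 5%. The SHR and WKY arrays did not overlap for 1 member, Ccn1, against 7.25% of all genes. The median difference of the 9 genes was −0.06, beside −0.02 over all genes tested, with 4 genes above 0 and 5 below.

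**Figure D1:**
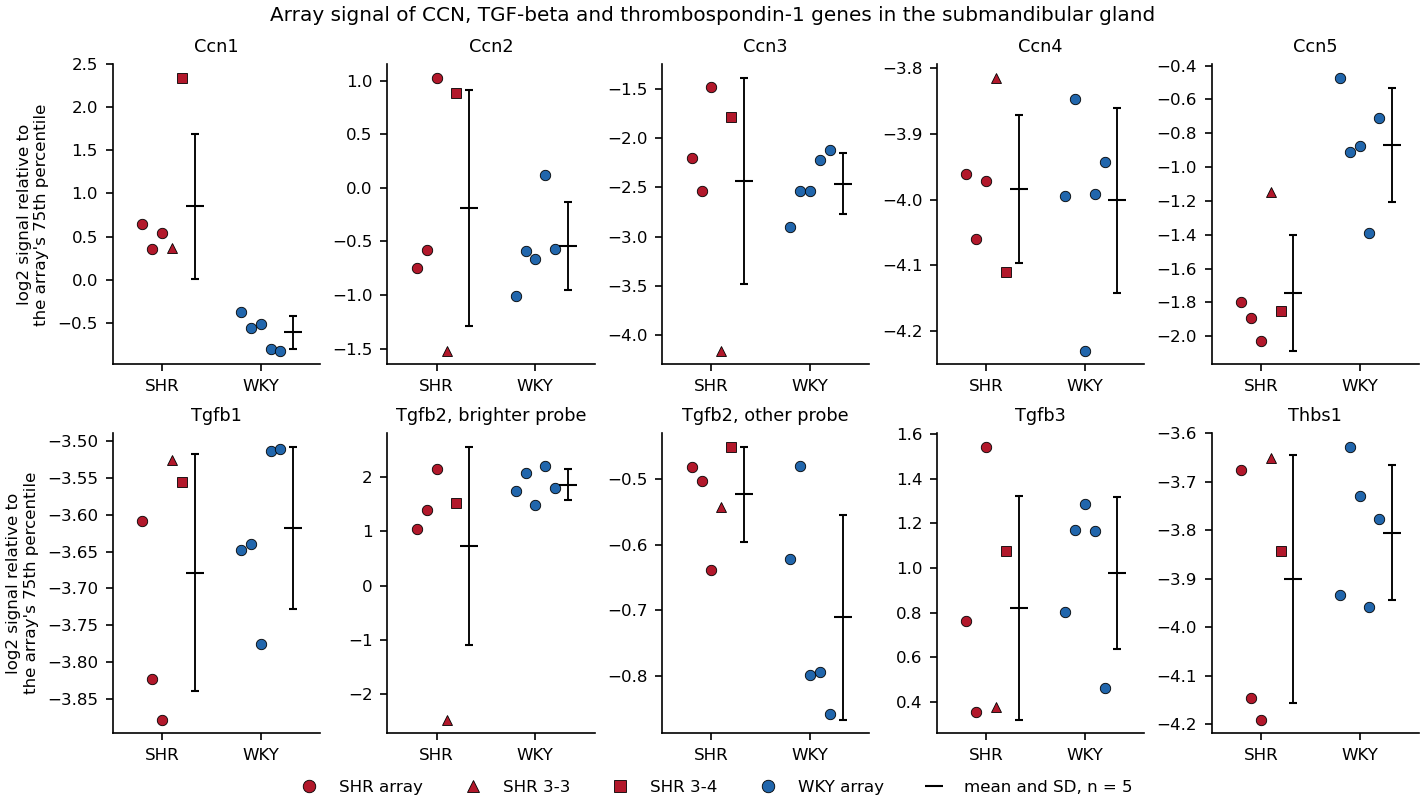
Log2 signal relative to the array's 75th percentile for each member probe, 1 point per array, with SHR left and WKY right in each panel and the mean and SD (n = 5) beside the points. Ccn1 shows 5 SHR arrays above all WKY arrays, Ccn5 shows SHR below WKY but for SHR 3-3, and SHR 3-3 (triangle) lies lowest of all arrays for Ccn2, Ccn3 and the brighter Tgfb2 probe. Each panel has its own vertical scale.

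Ccn1 encodes the protein long called CYR61, an immediate early gene product that binds integrins and promotes adhesion and angiogenesis. Its log2 values were 0.64, 0.36, 0.54, 0.37 and 2.34 in SHR 2-1, 2-3, 3-1, 3-3 and 3-4, against −0.37, −0.56, −0.51, −0.80 and −0.83 in WKY 1-2, 1-3, 1-5, 4-1 and 4-2. Every SHR array lay above every WKY array, and SHR 3-4 lay far above the other 4 SHR arrays. In processed signal, before scaling, SHR ran between 430 and 2240 and WKY between 293 and 422, so the strains did not overlap there either. The means were 0.85 ± 0.84 in SHR and −0.62 ± 0.20 in WKY (SD, n = 5 each). Ccn1 was thus 2.76-fold higher in SHR, a log2 difference of 1.46 ± 0.32 (SE, 95% interval 0.77 to 2.16, limma adjusted p = 0.0240). An exact two-sided permutation test over the arrays gave p = 0.00794, the smallest that 252 arrangements of 5 against 5 allow.

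The Ccn1 difference did not rest on SHR 3-4: without that array it was 1.09, with an adjusted p of 0.000437. It missed the threshold without WKY 1-3 (adjusted p = 0.0609), WKY 4-1 (0.0603) or WKY 4-2 (0.0532). Within slide 2, which holds both strains, the single SHR array lay at 0.64 and the 3 WKY arrays between −0.83 and −0.51. In a fit of slide 2 the lone SHR array has no spread of its own and is assumed to vary as the WKY arrays do, so its p is a weak test. That difference of 1.35 had an adjusted p of 0.0612 in a fit of slide 2 alone and of 0.99995 when the whole fit took the slide as a block. On the authors' deposited log2 scale, Ccn1 averaged 9.86 in SHR and 8.38 in WKY.

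Ccn5, also known as Wisp2, encodes a CCN protein that lacks the carboxy-terminal domain of its relatives and restrains the growth of smooth muscle cells in culture. Its log2 values were −1.80, −1.89, −2.03, −1.15 and −1.85 in the 5 SHR arrays, in the same order, against −0.47, −0.91, −0.87, −1.39 and −0.71 in the 5 WKY arrays. The strains overlapped through 1 array each: SHR 3-3 lay above WKY 4-1, and the other 4 SHR arrays lay below all WKY arrays. The processed signals, before scaling, ran from 122 to 173 in SHR and from 222 to 363 in WKY, without overlap. They carry the brightness of each array, so this is no separate evidence. SHR 3-3, at 150, had a 75th percentile of 333, and WKY 4-1, at 222, had one of 582. Mean values were −1.74 ± 0.34 in SHR and −0.87 ± 0.34 in WKY (SD, n = 5 each). Ccn5 fell by 0.87 on the log2 scale in SHR (1.83-fold lower, SE 0.19, 95% interval −1.28 to −0.47, limma adjusted p = 0.0218). The exact two-sided permutation p was 0.0159.

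Without SHR 3-3 the Ccn5 difference was −1.02, with an adjusted p of 0.00240. The call was lost, with adjusted p between 0.05001 and 0.0584, without SHR 2-3, SHR 3-1, SHR 3-4, WKY 1-2 or WKY 1-3. On slide 2 the SHR array lay at −1.80, below the 3 WKY arrays at −1.39 to −0.71. The slide 2 difference of −0.81 had an adjusted p of 0.521 alone and 0.972 with the slide as a block.

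In bulk tissue, a lower value can come from fewer cells of a type or from less RNA per cell, and these cannot be told apart. Markers of the cells that could carry CCN genes are therefore given as summed levels, in multiples of the array's 75th percentile. Fibroblast markers (5 of 7 measured, 0 past the test, 2 at an unadjusted p under 0.05) summed to between 2.74 and 3.95 in SHR and between 3.29 and 3.85 in WKY. The median difference of the fibroblast markers was −0.31, with 1 gene above 0 and 4 below. Myoepithelial and smooth muscle markers (8 of 8 measured, 0 past the test, 1 unadjusted) summed to 13.1 to 25.0 in SHR and 16.4 to 19.3 in WKY. Endothelial markers (6 of 7 measured, 0 past the test, 1 unadjusted) summed to 3.16 to 4.90 in SHR and 3.49 to 4.45 in WKY. Acinar markers (5 of 5 measured, 1 past the test, 3 unadjusted) summed to 109 to 136 in SHR and 86.0 to 119 in WKY. Of these the secretory protein gene Smgc fell, with a log2 difference of −4.10, against 2.85% of all genes tested that fell. The other 4 were at 0.23 to 0.38, so the list's median was 0.23. Skeletal muscle markers (5 of 5 measured, 0 past the test, 2 unadjusted) summed to 48.8 to 78.4 in SHR and 45.5 to 52.5 in WKY. These 5 sums overlapped between the strains, but a sum of linear levels is set by its brightest genes. Actn3 (mean log2 5.87 in SHR and 5.58 in WKY) made up most of the skeletal muscle sum, with Ckm at 0.01 and −0.48. Smgc, at −1.63 in SHR and 2.47 in WKY, was a small part of the acinar sum. Overlapping sums therefore do not show equal cell makeup. The part of cell makeup in the Ccn1 and Ccn5 differences was not tested.

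The 5 genes whose profile over the 10 arrays lay closest to that of Ccn1 were Map2, Col11a2, Cdc42bpa, Apold1 and Camk2n1. Closeness was the root mean square difference of mean-centred log2 values, which was 0.46, 0.49, 0.49, 0.51 and 0.55 in that order. The root mean square of the centred Ccn1 values themselves was 0.91. Because Ccn1 was higher in SHR, this choice favoured genes higher in SHR. Their strain differences and p-values below are therefore descriptive and no separate evidence. Map2, a microtubule-associated protein, was higher in SHR by 0.97 (adjusted p = 0.00274), and Col11a2, a fibrillar collagen chain, by 0.95 (adjusted p = 6.8e-04). Cdc42bpa, a kinase that acts downstream of Cdc42, was higher by 1.17 (adjusted p = 0.00106). With the slide as a block these 3 stood at 1.14, 0.93 and 0.97 (adjusted p = 0.259, 0.271 and 0.496), and Col11a2 at 0.50 (adjusted p = 0.00551) when its probes were averaged. Apold1, an endothelial early response gene, differed by 0.78 (adjusted p = 0.0634) and Camk2n1, an inhibitor of calcium/calmodulin-dependent kinase II, by 0.92 (adjusted p = 0.0574).

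Ccn2 encodes connective tissue growth factor, a cofactor of TGF-beta in matrix production. Its log2 values were −0.74, −0.58, 1.03, −1.52 and 0.88 in SHR and −1.01, −0.59, −0.66, 0.12 and −0.57 in WKY. The SHR arrays spread on both sides of the WKY arrays, with SHR 3-1 and 3-4 above all of them and SHR 3-3 below all. The difference was 0.35 ± 0.43 (SE, 95% interval −0.59 to 1.29, adjusted p = 0.692). This interval includes differences of either sign.

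Ccn3, once named Nov, encodes a CCN protein often found to oppose Ccn2 in culture. It had log2 values of −2.20, −2.53, −1.48, −4.16 and −1.79 in SHR and −2.90, −2.54, −2.54, −2.22 and −2.12 in WKY. Set against the average of its strain's other arrays, SHR 3-3 deviated by −2.16, and the remaining SHR values overlapped WKY. The difference was 0.03 ± 0.40 (SE, 95% interval −0.84 to 0.90, adjusted p = 0.976). Without SHR 3-3 it was 0.46, with an adjusted p of 0.237. Within the CCN genes, the profiles of Ccn2 and Ccn3 were the closest pair, with a root mean square difference of 0.41 over the 10 arrays, both having their lowest value in SHR 3-3.

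Ccn4, also called Wisp1, encodes a CCN protein known as a target of Wnt signalling. Its log2 values lay between −4.11 and −3.81 in SHR and between −4.23 and −3.85 in WKY, and its processed signals between 23.7 and 41.3. The strains overlapped, with a difference of 0.02 ± 0.09 (SE, 95% interval −0.18 to 0.22, adjusted p = 0.939).

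Tgfb1, the ligand most studied in fibrosis and immune control, had log2 values of −3.61, −3.82, −3.88, −3.53 and −3.56 in SHR and −3.65, −3.64, −3.78, −3.51 and −3.51 in WKY. SHR 2-3 and 3-1 lay below every WKY array and the other 3 SHR arrays lay within the WKY range. These are the arrays with the highest 75th percentiles, 642 and 648. Their processed signals, before scaling, were 45.4 and 44.1, the highest of the SHR arrays and within the WKY range of 34.6 to 52. The difference was −0.06 ± 0.10 (SE, 95% interval −0.27 to 0.15, adjusted p = 0.773). Its sign turned under quantile normalisation (0.02).

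Tgfb2, a ligand known for its roles in epithelium and development, was read by a pair of probes that disagreed. The brighter probe gave log2 values of 1.05, 1.40, 2.14, −2.47 and 1.52 in SHR and 1.74, 2.07, 1.49, 2.20 and 1.80 in WKY. The value of SHR 3-3 differed by −3.99 from its strain's other arrays, and 3 of the genes tested had a more negative deviation there. The difference was −1.13 ± 0.67 (SE, 95% interval −2.60 to 0.34, adjusted p = 0.372), and −0.33 (adjusted p = 0.386) without SHR 3-3. The other Tgfb2 probe gave −0.48, −0.50, −0.64, −0.54 and −0.45 in SHR and −0.62, −0.48, −0.80, −0.79 and −0.86 in WKY. On that probe SHR 3-3 lay among the other SHR arrays, and the difference was 0.19 ± 0.09 (SE, adjusted p = 0.290 over 29266 probes). The signs of the 2 probes were opposite and neither passed the test.

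The genes nearest to the brighter Tgfb2 probe, looked up after its values were seen, were Gulp1, Egf and Sult1c3, at root mean square differences of 0.13, 0.18 and 0.22. Egf, the epidermal growth factor stored in granular ducts, deviated by −4.31 in SHR 3-3 on the same scale, and Klk1c2, a duct kallikrein, by −2.64. The summed level of the 4 measured granular duct markers was 232 in SHR 3-3, within an SHR range of 232 to 573 and below the WKY range of 362 to 393. Their part in the Tgfb2 value of SHR 3-3 was not tested.

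Tgfb3, a ligand linked to epithelial fusion and scar-poor repair, had log2 values of 0.76, 0.35, 1.54, 0.38 and 1.07 in SHR and 0.80, 1.17, 1.29, 1.16 and 0.46 in WKY. SHR 2-3 and 3-3 lay below all WKY arrays and SHR 3-1 above all. The difference was −0.15 ± 0.23 (SE, 95% interval −0.65 to 0.34, adjusted p = 0.753).

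Thbs1 encodes thrombospondin-1, which releases TGF-beta from its latent complex and inhibits angiogenesis. Its log2 values were −3.67, −4.15, −4.19, −3.65 and −3.84 in SHR and −3.93, −3.63, −3.73, −3.96 and −3.78 in WKY. SHR 2-3 and 3-1 lay below all WKY arrays, as for Tgfb1, and the others overlapped. In processed signal, before scaling, SHR 2-3 and 3-1 had 36.3 and 35.5, within the WKY range of 32.8 to 45.5. The part of scaling in the pattern shared by these 2 dim probes was not tested. The difference was −0.10 ± 0.12 (SE, 95% interval −0.37 to 0.17, adjusted p = 0.713), and 0.0046 under quantile normalisation. Platelets store thrombospondin-1, and their markers (4 of 5 measured, 0 past the test, 0 unadjusted) summed to 1.00 to 1.31 in SHR and 1.13 to 1.43 in WKY.

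**Figure D2:**
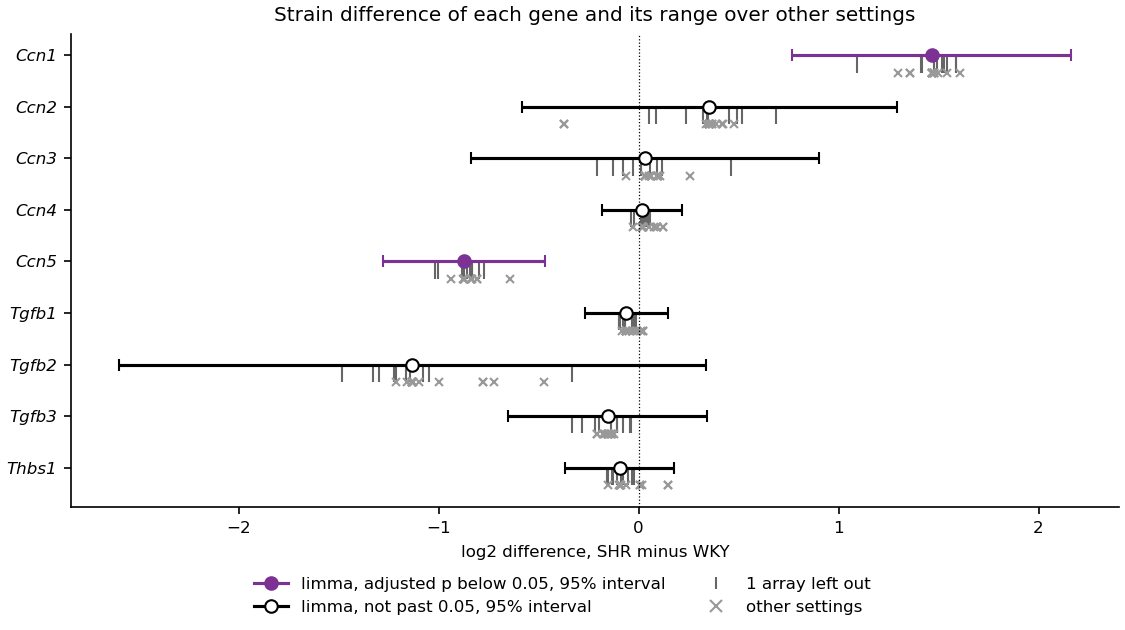
SHR minus WKY log2 difference of each gene with its 95% interval from limma (circle and bar), the 10 fits that leave out 1 array (ticks) and the other processing settings (crosses). Ccn1 and Ccn5, at 1.46 and −0.87, stay on their side of 0 in every fit shown, while Ccn2, Ccn3, Ccn4, Tgfb1 and Thbs1 have values on both sides.

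In 4 lists of the TGF-beta pathway, 2 genes of latency and activation rose and 1 target gene fell. The 5 receptors had 0 genes past the test in limma (2 at an unadjusted p under 0.05) and a median difference of −0.05. Acvrl1, a type I receptor of endothelium, was at 0.30 in SHR minus WKY (adjusted p = 0.0602) with no overlap between the strains, and passed under quantile normalisation (0.34, adjusted p = 0.0256). Tgfbr1, the main type I receptor, was at −0.22 (adjusted p = 0.146), also without overlap. The 12 measured SMADs and SMAD regulators (of 16 listed) had 0 past the test (2 unadjusted) and a median of 0.15. Smad3, Smad6, Ski and Skil of that list were not among the genes tested. The largest differences of the 12 were 0.28 for Bambi, a pseudoreceptor, and 0.25 for Smad7, an inhibitory SMAD.

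Among 19 measured genes (of 21 listed) of TGF-beta latency and activation 2 rose, Furin and Ltbp3, against 1.51% of all genes tested. In this list 0 fell, 6 had an unadjusted limma p under 0.05, and the median was −0.09. Furin, the protease that cleaves the TGF-beta propeptide, had log2 values of 3.71 to 4.03 in SHR, with a median of 4.00, and 3.09 to 3.59 in WKY, with a median of 3.55. It was higher by 0.48 ± 0.11 (SE, adjusted p = 0.0329), without overlap between the strains. Ltbp3, which tethers latent TGF-beta to the matrix, had log2 values of −1.39 to −0.89 in SHR and −1.57 to −1.44 in WKY, also without overlap. Its difference was 0.37 ± 0.09 (SE, adjusted p = 0.04997).

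Both calls were close to the threshold. Furin lost it without SHR 2-1, 3-1 or 3-4 or WKY 1-2, 1-3 or 4-1, with adjusted p of up to 0.0753. Ltbp3 lost it without any WKY array and without SHR 2-1, 3-1, 3-3 or 3-4, with adjusted p of up to 0.121. Ltbp3 also lost it with no filter on dim probes (adjusted p = 0.0538), with outlier spots kept (0.0501) and with every probe tested (0.0551). In slide 2 alone Furin was at 0.65 (adjusted p = 0.524) and Ltbp3 at 0.33 (adjusted p = 0.679).

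Of 19 measured TGF-beta target genes (of 20 listed) 1 fell, against 2.85% of all genes tested, and 0 rose. An unadjusted limma p under 0.05 was held by 5 of the 19, and the list's median was −0.17, which became −0.30 without SHR 3-4. The gene that fell was Col1a1, a chain of type I collagen, with log2 values of 1.03, 1.09, 0.46, 0.07 and 0.36 in SHR and 1.33, 1.44, 1.69, 1.51 and 0.99 in WKY. SHR 2-1 and 2-3 overlapped WKY 4-2 and the other 3 SHR arrays lay below all WKY arrays. The difference was −0.79 ± 0.20 (SE, adjusted p = 0.0438) on the brighter probe and −0.19 (adjusted p = 0.360) on the other probe. The call was lost without SHR 3-1, 3-3 or 3-4 or without WKY 1-2, 1-3, 1-5 or 4-1, with adjusted p of up to 0.103. It was also lost with normexp (adjusted p = 0.0588), median scaling (0.0581) and the mean of both probes (−0.49, adjusted p = 0.0707). Slide 2 alone gave −0.36 (adjusted p = 0.854).

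The other ligands and the extracellular binders had 0 genes past the test in limma. Among 14 other ligands of the superfamily (of 15 listed) 2 had an unadjusted p under 0.05 and the median was −0.03. Bmp7, a bone morphogenetic protein, was at −0.67 (adjusted p = 0.0638) and Inhbb, an activin subunit, at −0.39 (adjusted p = 0.555), with another Inhbb probe at 0.35 (adjusted p = 0.342). Leaving out 1 array moved the Inhbb value as far as −0.12 (WKY 4-1) or −0.22 (SHR 3-1) on one side and −0.59 (SHR 2-3 or WKY 4-2) on the other. Among 11 antagonists and binders (of 13 listed) 2 had an unadjusted p under 0.05 and the median was 0.02. Decorin (Dcn), a proteoglycan that binds TGF-beta, was at −0.78 (adjusted p = 0.314), and at −0.35 without SHR 3-3.

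Among 8 measured receptors of thrombospondin-1 and CCN proteins (of 10 listed), 1 fell, against 2.85% of all genes tested. In this list 0 rose, 3 had an unadjusted limma p under 0.05, and the median was −0.09. Cd36, a scavenger receptor that binds thrombospondin-1, had log2 values of −2.19, −2.28, −2.36, −2.35 and −2.36 in SHR and −1.39, −1.20, −1.48, −1.11 and −1.23 in WKY. The strains did not overlap, and the spread within each was small beside the gap. Cd36 was 2.03-fold lower in SHR (log2 difference −1.03 ± 0.09 SE, adjusted p = 3.3e-05), and its other probe gave −0.50 (adjusted p = 0.0328). It passed without each single array. Within slide 2, where SHR has 1 array, the difference was −0.91. Its adjusted p was 0.0864 in the fit blocked by slide and 0.209 in that slide alone.

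In the same list Itgb2, the leukocyte integrin beta chain, named here after its value was seen, was at −1.19 (adjusted p = 0.0641). Its arrays did not overlap, and 4 of 5 SHR arrays and 5 of 5 WKY arrays were above background. Macrophage markers moved in the same direction as Cd36 and Itgb2. Of the 7, all measured, Cd68 (−0.97, adjusted p = 0.00668) and Aif1 (−0.81, adjusted p = 0.0293) fell, against 2.85% of all genes tested, and 0 rose. Of the 7, 4 had an unadjusted limma p under 0.05. The summed level of the 7 ran from 5.28 to 10.7 in SHR and from 11.1 to 16.4 in WKY, without overlap. T and B cell markers (6 of 7 measured, 0 past the test in limma, 2 unadjusted) summed to 1.12 to 1.362 in SHR and 1.363 to 1.54 in WKY, which did not overlap by a narrow margin. The part of macrophage and lymphocyte content in the Cd36 and Itgb2 values was not tested.

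**Figure D3:**
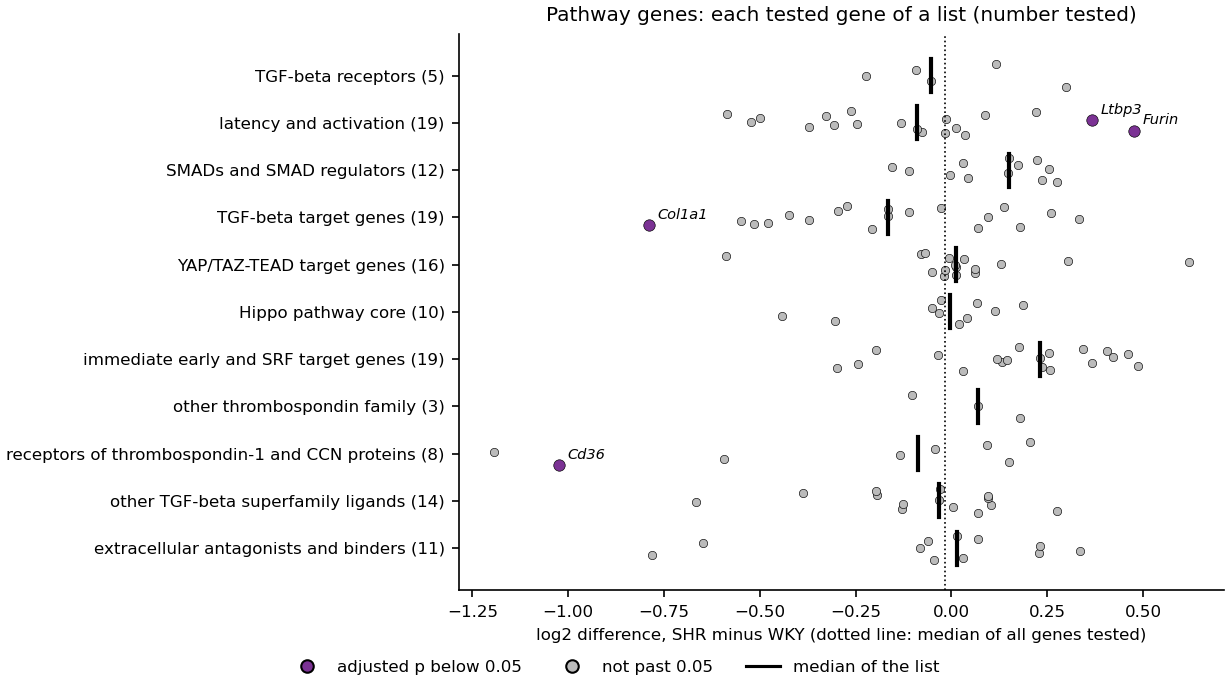
SHR minus WKY log2 difference of every tested gene in 11 lists around the TGF-beta and CCN genes, with the list's median as a bar and the median of all genes tested (−0.02) as a dotted line. Ltbp3 and Furin passed the test on the higher side, and Col1a1 and Cd36 on the lower side.

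None of the measured genes in the YAP/TAZ, Hippo and immediate early lists, which hold other targets or parts of pathways known to act on Ccn1, passed the test. The 16 measured targets (of 23 listed) of YAP/TAZ and TEAD, the transcription factors of the Hippo pathway, had 0 genes past the test in limma (2 at an unadjusted p under 0.05) and a median of 0.01. Gadd45b, a stress-response gene, was at 0.62 (adjusted p = 0.183) and Nt5e, an ectonucleotidase, at −0.59 (adjusted p = 0.318). Nt5e was at −0.36 without WKY 1-2 and −0.37 without WKY 1-3. The 10 measured core Hippo genes (of 13 listed) had 0 past the test (1 unadjusted) and a median of −0.0044. Yap1, Lats1 and Tead4 of that list were not among the genes tested. Sav1, a scaffold of the kinase cascade, was at −0.44 (adjusted p = 0.0866) and the kinase cofactor Mob1b at −0.30 (adjusted p = 0.447). The Mob1b value was −0.10 without SHR 3-3, and its other probe was at −0.016 (adjusted p = 0.959). Among 3 measured relatives of the members (of 5 listed), 0 passed (0 unadjusted) and the median was 0.07, with Ccn6 at 0.18 (adjusted p = 0.247), or −0.024 on its other probe, and Thbs2, thrombospondin-2, at −0.10 (adjusted p = 0.718).

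The 19 measured immediate early and serum response factor genes (of 20 listed) had 0 genes past the test in limma (3 at an unadjusted p under 0.05). Their median difference was 0.23, with 15 genes above 0 and 4 below, and it was 0.05 without SHR 3-4. Within slide 2, and so with the slide as a block, the median was 0.011. Egr2 was at 0.49 (adjusted p = 0.275), or 0.27 without SHR 3-4, and Klf4 at 0.46 (adjusted p = 0.142). Both are transcription factors induced early after stimulation.

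The single array SHR 3-4, which held the highest Ccn1 value, also held high values of this list. The list's median deviation from its mean over all arrays was 0.49 there, against −0.13 to 0.02 in the other SHR arrays and −0.19 to −0.01 in the WKY arrays. In SHR 3-4, 7 of the 19 genes exceeded the average of the other SHR arrays by 2-fold or more, as did 92 of all 14711 genes tested. Among them Atf3 lay 2.16 log2 units above, Junb 1.33, Fos 1.25 and Egr2 1.08. Ccn1 lay 1.87 above, with 10 genes tested lying further above theirs on that array, and Ccn2 lay 1.34 above. Without SHR 3-4 Ccn1 kept its strain difference of 1.09, while the difference of Ccn2 was 0.09.

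**Figure D4:**
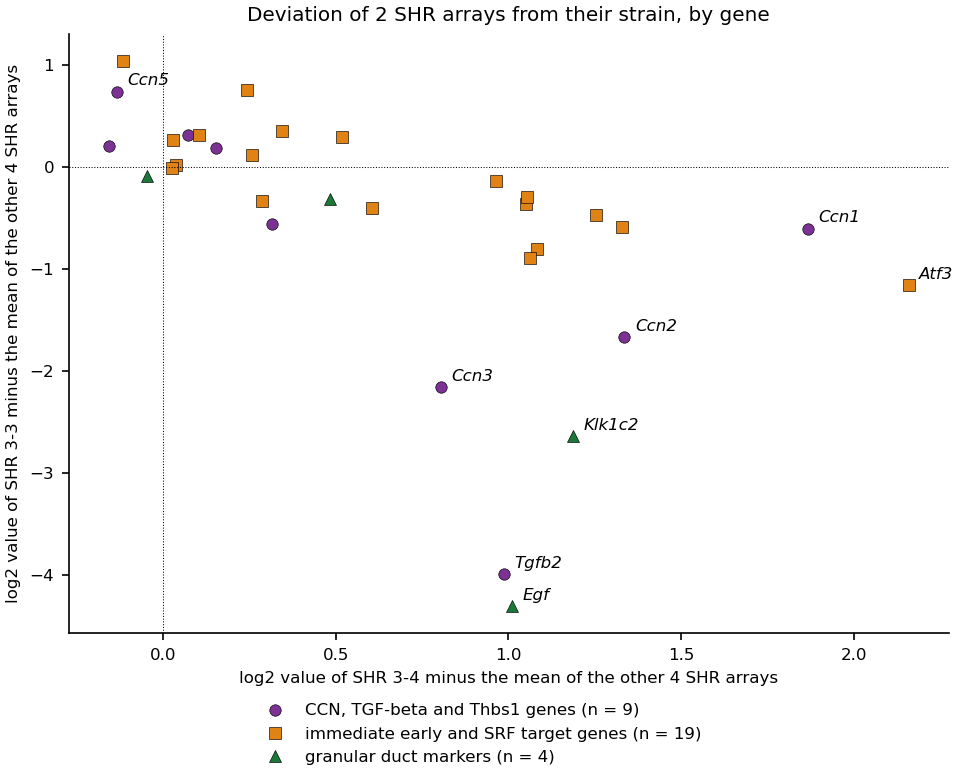
Log2 value of SHR 3-4 (horizontal) and of SHR 3-3 (vertical), each minus the mean of the other 4 SHR arrays, for the 9 member genes, 19 immediate early and serum response factor genes and 4 granular duct markers. Ccn1 (1.87) and Atf3 (2.16) lie furthest right for SHR 3-4, and Tgfb2 (−3.99) and Egf (−4.31) lie lowest for SHR 3-3.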

How the data were processed

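The series holds 10 one-colour Agilent expression arrays of rat submandibular gland, 5 SHR and 5 WKY. Total RNA, isolated with Trizol, was amplified with Cy3 label, per the labels' protocols. Scans were read with Agilent Feature Extraction 11.0.1.1 per the file headers, and the deposited processed signal is a background-subtracted intensity on a linear scale. The authors' deposited table gives log2 values for 30423 probes, and every column had a median of 7.19 and a 75th percentile of 8.79. Its columns correlated with the log2 processed signal at 0.999 or more across probes, which are not independent replicates. The steps that made it are not given in the sources used here.

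From every log2 processed signal the 75th percentile of its array was subtracted, with no pseudocount. Outlier spots were left out and spots of 1 probe averaged. The filter kept 29266 of 30367 probes, those well above background on 5 or more arrays, and the brightest kept probe stood for a gene. Probes were named by matching their RefSeq accession to a GRCr8 gene table, with 18005 probes named and 12362 unnamed. SHR was compared with WKY in limma 3.58.1 (R 4.3.3, lmFit and eBayes, two-sided, no covariate) over 14711 genes with Benjamini-Hochberg adjustment at 0.05. In data simulated for this comparison over 14711 genes, 52% of 50 genes changed by 0.5 on the log2 scale were recovered, and 94% of those changed by 1.

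Alternatives were normexp (offset 50) with quantile normalisation, quantile normalisation, median scaling, the authors' values, other filters, outlier spots kept, other uses of probes, array weights, an intensity trend, the slide, the title number and leaving out each array. Slides were inferred from scan times in the file headers, and whether arrays scanned together shared a slide is not known. The named genes are all members, up to 3 genes past the test per pathway list (or the 2 largest where none passed) and the 5 genes nearest to Ccn1. Genes named beside these, such as cell type markers, Itgb2, the genes nearest to Tgfb2 and the genes high in SHR 3-4, were chosen after their values were seen. The values of 1 further list gene are not reported here, though list counts include it. The members and lists were chosen with earlier results of these data known. The labels describe 1 array per rat. Protein sequences were not used here.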

Additional observations from a re-analysis of the deposited data

Results flagged for a closer look

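Of 68 gene and strain groups checked, 6 held an array whose gap to its nearest neighbour was large beside the range of its group, and chance gives about 5% of groups. Ccn1 in SHR 3-4 was at 2.34, against 0.36 to 0.64 in the other SHR arrays. Ccn5 in SHR 3-3 was at −1.15, against −2.03 to −1.80. Tgfb2 in SHR 3-3 was at −2.47, against 1.05 to 2.14. Decorin (Dcn) in SHR 3-3 was at −2.17, against −0.36 to 0.34. Thus 3 of the 6 lay in SHR 3-3, the array with the lowest 75th percentile of signal, and the part of array quality in them was not tested. Furin in WKY 4-2 was at 3.09, against 3.45 to 3.59 in the other WKY arrays. Cdc42bpa in WKY 4-1 was at −1.51, against −1.35 to −1.32.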

How the results depend on the processing

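Ccn1 and Ccn5 kept their direction under all 25 alternatives. In 3 of them, the slide as a block, slide 2 alone and leaving out WKY 1-3, 0 members were higher and 0 lower by limma, with 1, 3 and 2 of the 9 at an unadjusted p under 0.05. Leaving out each array gave 0 to 1 members higher and 0 to 1 lower. Over all genes, 222 were higher and 419 lower, 34.6% of calls higher. The count higher was 334 with normexp (48.0% of calls), 418 with quantile normalisation (49.1%), 336 with median scaling (46.5%) and 423 with the authors' values (49.4%). Testing every probe gave 376 higher and 747 lower. The slide as a block gave 12 and 32 and slide 2 alone 14 and 38, where fewer arrays bear on the strain. The slide as a random block gave 1350 and 2101 and the title number as a random block 669 and 1110. Their consensus correlations were −0.19 and −0.16, and the cause of a negative value was not tested. Leaving out each array gave 125 to 237 higher and 218 to 512 lower. Signs turned for values close to 0: Tgfb1 to 0.012 with normexp and 0.024 with quantile normalisation and the authors' values, and Thbs1 to 0.015, 0.0046 and 0.0048 in that order. With the slide as a block or slide 2 alone, Thbs1 was at 0.15, Ccn2 at −0.37, Nt5e at 0.27, Mob1b at 0.20 and Thbs2 at 0.11. The median of TGF-beta receptors was then 0.06, the median of receptors of thrombospondin-1 and CCN proteins 0.07, the median of latency and activation 0.0038 and the median of YAP/TAZ-TEAD target genes 0.07. Ccn3 was at −0.063 with the slide as a random block and Ccn4 at −0.029 with array weights. Leaving out each array moved Ccn3 between −0.21 and 0.46 and Ccn4 between −0.040 and 0.056. No paired analysis was possible because the strains share no replicate number. For dim probes, signal over background limits the differences that can be seen.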
